A study of Homo sapiens with 39 samples.

Results

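Retinol and retinaldehyde enzymes and carriers were followed in 7 established lines of human acute myeloid leukemia, each given tamibarotene or only its vehicle. The members are 9 genes named one by one: DHRS3, DHRS9, RDH10, RDH11, LRAT, STRA6, CRABP2, ALDH1A1 and ALDH1A2. They were taken with all 26 probe sets of the array whose platform annotation names only that symbol, out of 18132 genes with at least 1 such probe set. The main probe set of a gene is the one that was brightest on average across the 39 arrays, and the remaining probe sets are given beside it.

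Cells take up retinol through STRA6, the membrane receptor for retinol-binding protein, and store it as retinyl esters made by LRAT. Retinol dehydrogenases such as RDH10 and DHRS9 oxidise retinol to retinaldehyde, while DHRS3 and RDH11 reduce retinaldehyde back to retinol. The aldehyde dehydrogenases ALDH1A1 and ALDH1A2 turn retinaldehyde into retinoic acid, which CRABP2 carries to the retinoic acid receptors in the nucleus.

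Tamibarotene (SY-1425) is a synthetic agonist of retinoic acid receptor alpha (RARA). The labels give 100 nM as added and 50 nM as the final concentration, with DMSO as the vehicle, and the cells were collected after 24 h. MV-4-11, OCI-AML3, Sig-M5, NOMO-1, KG-1a, Kasumi-1 and OCI-M1 each had 3 tamibarotene arrays. MV-4-11, OCI-AML3, NOMO-1 and OCI-M1 had 3 vehicle arrays and Sig-M5, KG-1a and Kasumi-1 had 2, which makes 21 treated and 18 vehicle arrays. The labels name no separate cultures behind the replicates, so the p-values measure only the spread between these samples, which may be technical. The values are log2 intensities from Affymetrix PrimeView arrays, and a difference is tamibarotene minus vehicle on that scale with the standard error of the fit. Calls are genes with an adjusted p below 0.05 in limma, with Benjamini-Hochberg adjustment over all 18132 genes. Intensities of different probe sets have no common scale, so levels are compared only between lines for 1 probe set.

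Array medians lay between 5.01 and 5.17. Vehicle levels of the leukocyte gene PTPRC ran from 5.11 in Kasumi-1 to 8.57 in Sig-M5, and RUNX1T1, the fusion partner in t(8;21) leukemia, was at 6.36 in Kasumi-1 and at 3.05 to 3.68 in the other 6 lines. EPCAM, an epithelial gene, was at 9.22 in Kasumi-1 vehicle arrays. The epithelial genes KRT19 (4.325) and CDH1 (3.60) lay there within the range of the other lines, and the myeloid gene MPO was at 13.77. ALB, a liver gene, was at 8.56 in OCI-M1 vehicle arrays. The liver gene APOA1 (5.78) lay there within the range of the other lines, and the erythroid gene KLF1 was at 11.32. The array's beta-actin control probe sets gave 3' minus 5' differences of 0.807 and 1.89 in the vehicle arrays of Sig-M5, against 0.311 to 0.343 in its treated arrays. In Kasumi-1 they were 1.18 and 0.298 in vehicle arrays, against 0.204 to 0.219 in treated arrays. The difference grows as RNA degrades, and the other 35 arrays lay between -0.02 and 0.557. The Sig-M5 vehicle array at 0.807 thus also lay above these 35. Both lines had 2 vehicle arrays, so leaving 1 out leaves 1. A call can then be lost through fewer arrays alone, so the sizes with and without an array carry the comparison.

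DHRS3 rose in 6 of the 7 lines, and no other member was called upward in more than 1 line. STRA6 rose and ALDH1A1 and RDH10 fell in OCI-AML3, while DHRS9 and RDH10 rose and CRABP2 fell in Sig-M5. RDH10 in OCI-AML3 and CRABP2 in Sig-M5 were called by the main probe set only. Without the Sig-M5 vehicle array of larger actin difference, RDH10 moved there from 0.585 to 0.18 and CRABP2 from -0.69 to -0.42. DHRS9 fell in MV-4-11, a call lost in 5 of 6 cases with 1 array of that line left out. RDH11, LRAT and ALDH1A2 were called in no line. Fewer cells of a type and less RNA per cell cannot be told apart in these bulk samples.

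**Figure D1:**
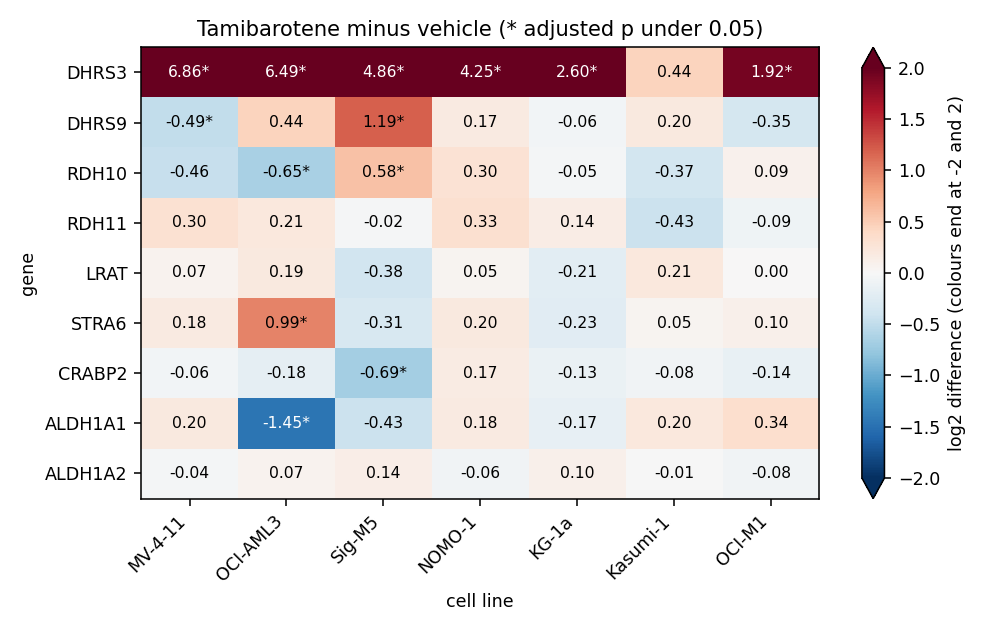
Tamibarotene minus vehicle on the log2 scale for the 9 genes (rows) in the 7 lines (columns), with an asterisk at an adjusted p under 0.05 (limma). DHRS3 has the largest absolute difference in every column and is called in 6 of them, from 6.86 in MV-4-11 to 1.92 in OCI-M1. In Kasumi-1, with no call, it is at 0.44 and RDH11 is close at -0.43. The remaining calls lie in the OCI-AML3, Sig-M5 and MV-4-11 columns.

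Set against all genes, the calls were spread as follows. In MV-4-11 1 of the 9 members was called up, against 4.32% of all genes, and 1 was called down, against 3.4%. In OCI-AML3 2 were called up, against 5.5% of all genes, and 2 down, against 6.36%. In Sig-M5 3 were called up, against 8.5% of all genes, and 1 down, against 18.4%. In NOMO-1 DHRS3 was the single call, with 2.77% of all genes called up and 0.711% down. In KG-1a it was again the single call, with 1.21% of all genes up and 1.88% down. In OCI-M1 it was the single call too, with 0.7% of all genes up and 0.386% down. In Kasumi-1 limma called none of the 9 members, with 0.48% of all genes up and 2.36% down. There 3 members had an unadjusted p under 0.05, a looser cutoff for which no share of all genes is given. The median difference over the 9 members lay between -0.06, in KG-1a, and 0.19, in OCI-AML3, where the medians over all genes were -0.02 and -0.03. Vehicle levels differed between lines for 8 of the 9 members, against 78.6% of all genes, and responses differed between lines for 7 members, against 27.4% of all genes (moderated F tests with 6 degrees of freedom).

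DHRS3 encodes a retinaldehyde reductase of the short-chain dehydrogenase family. In MV-4-11 it was at 10.99, 11.01 and 11.04 in tamibarotene arrays, against 4.53, 3.85 and 4.08 in vehicle arrays. In OCI-AML3 it was at 11.39, 11.36 and 11.37 in tamibarotene arrays, against 5.40, 4.72 and 4.52 in vehicle arrays. These 2 lines had the highest treated levels, and every treated array lay more than 5 units above every vehicle array of its line. Sig-M5 had 10.49, 10.34 and 10.59 in tamibarotene arrays, against 5.74 and 5.49 in vehicle arrays. NOMO-1 had 9.45, 9.45 and 9.46 in tamibarotene arrays, against 5.09, 5.48 and 5.05 in vehicle arrays. KG-1a had 7.13, 7.14 and 7.32 in tamibarotene arrays, against 4.82 and 4.37 in vehicle arrays. The treated arrays of these 3 lines also lay above all their vehicle arrays, with KG-1a ending at the lowest treated level of the 7. OCI-M1 had 9.94, 10.00 and 9.71 in tamibarotene arrays, against 7.71, 8.06 and 8.12 in vehicle arrays. Kasumi-1 had 8.55, 8.72 and 8.55 in tamibarotene arrays, against 8.25 and 8.08 in vehicle arrays. Both lines started from high vehicle levels, and although the arms of Kasumi-1 did not overlap, they lay close together.

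**Figure D2:**
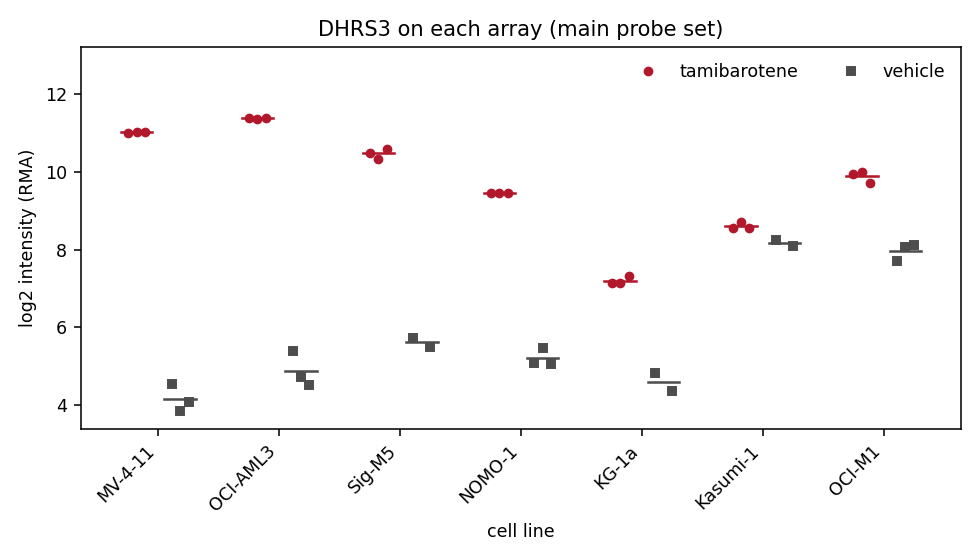
DHRS3 log2 intensity (y axis) on each array by line (x axis), with tamibarotene arrays as circles left of vehicle arrays as squares and group means as bars. Treated arrays sit above vehicle arrays in every line, while Kasumi-1 and OCI-M1 vehicle arrays, at 7.71 to 8.25, stand apart from the other lines, which lie at or below 5.74.

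The difference was 6.86 ± 0.17 in MV-4-11 (116-fold, adjusted p = 5.87e-24) and 6.49 ± 0.17 in OCI-AML3 (89.9-fold, adjusted p = 4.81e-23). It was 4.86 ± 0.19 in Sig-M5 (29.1-fold, adjusted p = 1.96e-18), 4.25 ± 0.17 in NOMO-1 (19.0-fold, adjusted p = 1.32e-17) and 2.60 ± 0.19 in KG-1a (6.07-fold, adjusted p = 2.08e-11). OCI-M1 gave 1.92 ± 0.17 (3.79-fold, adjusted p = 6.61e-09). Kasumi-1 gave 0.44 ± 0.19 with a 95% interval from 0.06 to 0.83, which did not pass (adjusted p = 0.199). The responses differed between lines (F test, adjusted p = 8.41e-19). For the array as a whole, 0.259% of genes were called upward in at least 5 lines.

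In vehicle arrays, DHRS3 was highest in Kasumi-1 (8.17 ± 0.12, SD, n = 2) and OCI-M1 (7.96 ± 0.22, SD, n = 3), which did not differ beyond their spread (adjusted p = 0.435, limma). Sig-M5 followed at 5.61, lower than OCI-M1 by 2.35 (adjusted p = 2.76e-12, limma). NOMO-1 at 5.20, OCI-AML3 at 4.88, KG-1a at 4.60 and MV-4-11 at 4.16 completed the order, and none of the 4 steps from Sig-M5 down passed the threshold (adjusted p from 0.0659 to 0.275, limma). Pairs further apart among these lines did differ. Their adjusted p ran from 9.22e-08 (MV-4-11 minus Sig-M5, -1.46) to 0.00839 (NOMO-1 minus KG-1a, 0.61) in limma. Over the 7 lines, the vehicle level and the difference of DHRS3 had a Pearson correlation of -0.80. The same vehicle arrays enter both measures, and over the 9 members this correlation ran from -0.87 (CRABP2) to 0.31 (DHRS9), with RDH11 and LRAT at -0.82. Vehicle means spanned 4.16 to 8.17 for DHRS3 but 5.23 to 5.70 for LRAT, so these correlations are not like measures. What lies behind the DHRS3 value was not tested. The vehicle level of RARA, the receptor gene, had a correlation of 0.58 with the DHRS3 difference over the same 7 lines.

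The other 2 probe sets of DHRS3 gave smaller differences in most lines. Probe set 2 gave 4.80 in MV-4-11, 5.57 in OCI-AML3, 3.72 in Sig-M5, 3.43 in NOMO-1, 1.40 in KG-1a, 0.64 in Kasumi-1 and 2.04 in OCI-M1, and was called in all of these except Kasumi-1 (adjusted p = 0.0697, limma). Probe set 3 gave 1.10 in MV-4-11, 1.89 in OCI-AML3, 0.65 in NOMO-1 and 0.66 in OCI-M1, all called. It gave 0.14 in Sig-M5 (adjusted p = 0.626), 0.11 in KG-1a (adjusted p = 0.944) and 0.48 in Kasumi-1 (adjusted p = 0.132), none of them called by limma. The order of the lines therefore depended in part on the probe set, with OCI-AML3 above MV-4-11 by probe sets 2 and 3. Averaged over the 3 probe sets, the Kasumi-1 difference was 0.52 and passed (adjusted p = 0.02, limma).

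**Figure D3:**
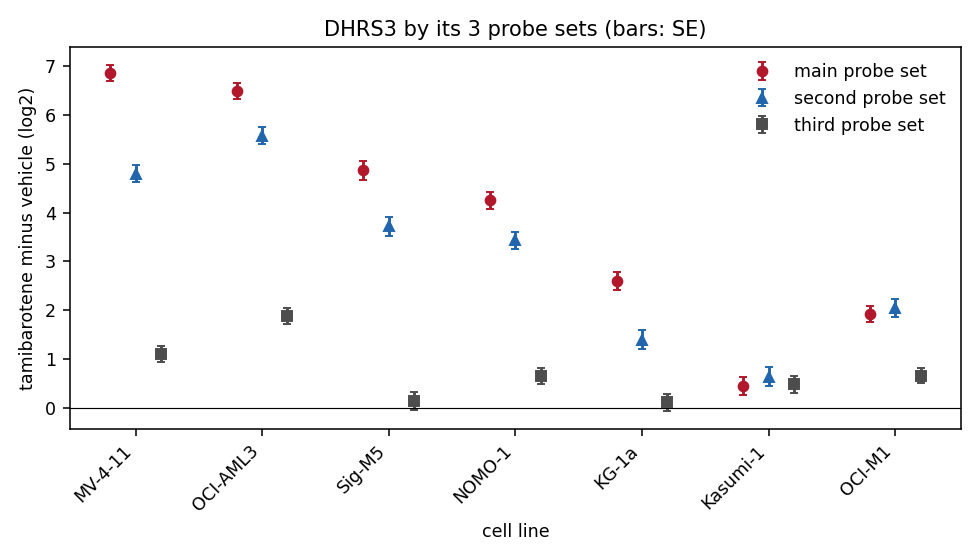
Tamibarotene minus vehicle of DHRS3 (log2, y axis) in each line (x axis) by its 3 probe sets, with standard errors as bars. Probe set 3 stays at or below 1.89 in all 7 lines, and the 3 probe sets come closest together in Kasumi-1, at 0.44, 0.64 and 0.48.

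RefSeq lists 3 start sites for DHRS3, all on the minus strand of chromosome 1 (GRCh38.p14). The 250 bases before 2 of them are shown because each holds 1 copy of a 6-base half-site of nuclear receptors. The search looked on both strands for AGGTCA, for its variants AGTTCA and also GGGTCA, and last for GGTTCA, and the match stands in capitals, 172 bases before the start in window 2 and 171 bases before it, on the opposite strand, in window 3.
DHRS3 window 2, chr1:12616790-12617039, minus strand: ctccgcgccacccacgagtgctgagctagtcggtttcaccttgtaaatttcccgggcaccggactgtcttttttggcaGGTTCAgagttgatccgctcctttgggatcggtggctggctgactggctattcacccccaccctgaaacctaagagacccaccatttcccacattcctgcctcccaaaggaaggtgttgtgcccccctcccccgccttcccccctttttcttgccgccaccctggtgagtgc
DHRS3 window 3, chr1:12596614-12596863, minus strand: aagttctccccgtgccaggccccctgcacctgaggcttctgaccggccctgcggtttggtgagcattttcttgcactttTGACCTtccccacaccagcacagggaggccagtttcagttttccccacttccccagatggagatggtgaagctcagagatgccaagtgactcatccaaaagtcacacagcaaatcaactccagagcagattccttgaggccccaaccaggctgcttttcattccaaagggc
The window at chr1:12618211-12618460 held no copy. No window of the 8 members with a RefSeq window (RDH10 was not used here) held 2 half-sites as a direct repeat with 1, 2 or 5 bases between them. At least 1 half-site, on either strand, occurred in 33.8% of 35116 windows of the same length. The direct repeats occurred in 0.0968%, 0.0313% and 0.074% of them. A match describes the letters of a window and is not a receptor site.

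RDH11, an NADPH-dependent retinaldehyde reductase, was called in no line by its main probe set. Its vehicle level was highest in Kasumi-1 (9.82 ± 0.11, SD, n = 2), OCI-M1 (9.56) and KG-1a (9.55), with Sig-M5 at 8.99, OCI-AML3 at 8.91, NOMO-1 at 8.31 and MV-4-11 at 8.17. The steps from KG-1a to Sig-M5 and from OCI-AML3 to NOMO-1 passed (adjusted p = 0.00281 and 0.000212, limma). In Kasumi-1, RDH11 was at 9.58, 9.11 and 9.48 in tamibarotene arrays, against 9.90 and 9.75 in vehicle arrays. These arms did not overlap, and the difference of -0.43 ± 0.14 did not pass (adjusted p = 0.0864, limma). NOMO-1 gave the highest difference, 0.33 ± 0.13 (adjusted p = 0.193, limma). In Sig-M5 the probe sets disagreed: the main one gave -0.02, another 0.28 (adjusted p = 0.171) and the remaining one 0.91 ± 0.21, which was called (adjusted p = 0.00117, limma). By that last probe set the vehicle arrays of Sig-M5 lay apart, at 6.80 and 7.71, and without the array of actin difference 1.89 the difference was 0.45 (adjusted p = 0.207, limma). The responses of RDH11 differed between lines (F test, adjusted p = 0.0235), but not under 4 of 10 other settings. These were the mean of its probe sets (F test, adjusted p = 0.179) and the actin covariate (F test, adjusted p = 0.102). The others were the omission of both vehicle arrays of high actin difference and that of Kasumi-1 and Sig-M5 as lines (F test, adjusted p = 0.415). The call was also lost without the Kasumi-1 vehicle array with the larger actin difference, which leaves 1 there.

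RDH10, the main retinol dehydrogenase of the embryo in mice, fell in OCI-AML3 and rose in Sig-M5. Vehicle levels were highest in OCI-M1 (8.41) and KG-1a (8.10), which did not differ beyond their spread (adjusted p = 0.163, limma), and lowest in Sig-M5 (4.81). In OCI-AML3, RDH10 was at 6.13, 6.03 and 5.97 in tamibarotene arrays, against 6.73, 6.83 and 6.54 in vehicle arrays. The arms did not overlap, and the difference was -0.65 ± 0.16 (1.57-fold lower, adjusted p = 0.00376, limma). Its other probe sets gave -0.45 in both cases and were not called (adjusted p = 0.135 and 0.0514, limma). In Sig-M5, RDH10 was at 5.45, 5.45 and 5.30 in tamibarotene arrays, against 5.21 and 4.41 in vehicle arrays. The low vehicle array is the one with the actin difference of 1.89. The difference was 0.585 ± 0.18 with it (1.5-fold, adjusted p = 0.0128) and 0.18 without it, which was not called (adjusted p = 0.618, limma). By the other probe sets it was 0.64 (adjusted p = 0.0163) and -0.01 (adjusted p = 0.987, limma), and the first of these gave 0.45 without that array (adjusted p = 0.271, limma). MV-4-11 had 6.85, 6.94 and 6.85 in tamibarotene arrays, against 7.41, 7.28 and 7.33 in vehicle arrays. The difference of -0.46 ± 0.16 did not pass (adjusted p = 0.0799, limma). It was called under 4 of 8 other settings of the processing, with adjusted p from 0.00435 to 0.0782 in limma.

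DHRS9, a dehydrogenase that acts on retinol and on hydroxysteroids and has 1 probe set here, rose in Sig-M5. It was at 7.80, 7.69 and 7.83 in Sig-M5 tamibarotene arrays, against 6.48 and 6.68 in vehicle arrays. The arms lay a full unit apart, and the difference was 1.19 ± 0.17 (2.29-fold, adjusted p = 2.24e-06, limma). It stayed between 1.10 and 1.29 and was called when any 1 Sig-M5 array was left out. In MV-4-11, DHRS9 was at 5.56, 5.53 and 5.26 in tamibarotene arrays, against 6.01, 5.78 and 6.02 in vehicle arrays. The arms did not overlap, and DHRS9 fell by 0.49 ± 0.15 (1.40-fold lower, adjusted p = 0.0382, limma). The call was lost when any MV-4-11 array other than vehicle replicate 2 was left out, with an adjusted p of up to 0.207 in limma. In OCI-AML3, DHRS9 was at 11.35, 11.31 and 11.31 in tamibarotene arrays, against 10.88, 10.94 and 10.83 in vehicle arrays. These arms also did not overlap, and the difference of 0.44 ± 0.15 lay just outside the threshold (adjusted p = 0.0511, limma). It was called under 7 of 8 other settings of the processing, with adjusted p from 0.00114 to 0.0515 in limma. In OCI-M1, DHRS9 was at 4.84, 4.13 and 3.93 in tamibarotene arrays, against 4.89, 4.72 and 4.35 in vehicle arrays. The arms overlapped through the treated array at 4.84, and the difference was -0.35 with it (adjusted p = 0.536) and -0.62 without it, which was called (adjusted p = 0.00684, limma).

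The vehicle level of DHRS9 spanned the widest range of the 9 main probe sets, with KG-1a at 4.54 and OCI-M1 at 4.65, OCI-AML3 at 10.88 and NOMO-1 at 12.05. Sig-M5 was at 6.58, Kasumi-1 at 6.14 and MV-4-11 at 5.94. Only 2 neighbouring pairs in this order did not differ beyond their spread, Kasumi-1 with MV-4-11 (adjusted p = 0.376, limma) and OCI-M1 with KG-1a (adjusted p = 0.63, limma). In NOMO-1, the line with the highest level, DHRS9 was at 12.27, 12.18 and 12.23 in tamibarotene arrays, against 11.99, 12.04 and 12.12 in vehicle arrays, a difference of 0.17 that was not called (adjusted p = 0.661, limma).

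**Figure D4:**
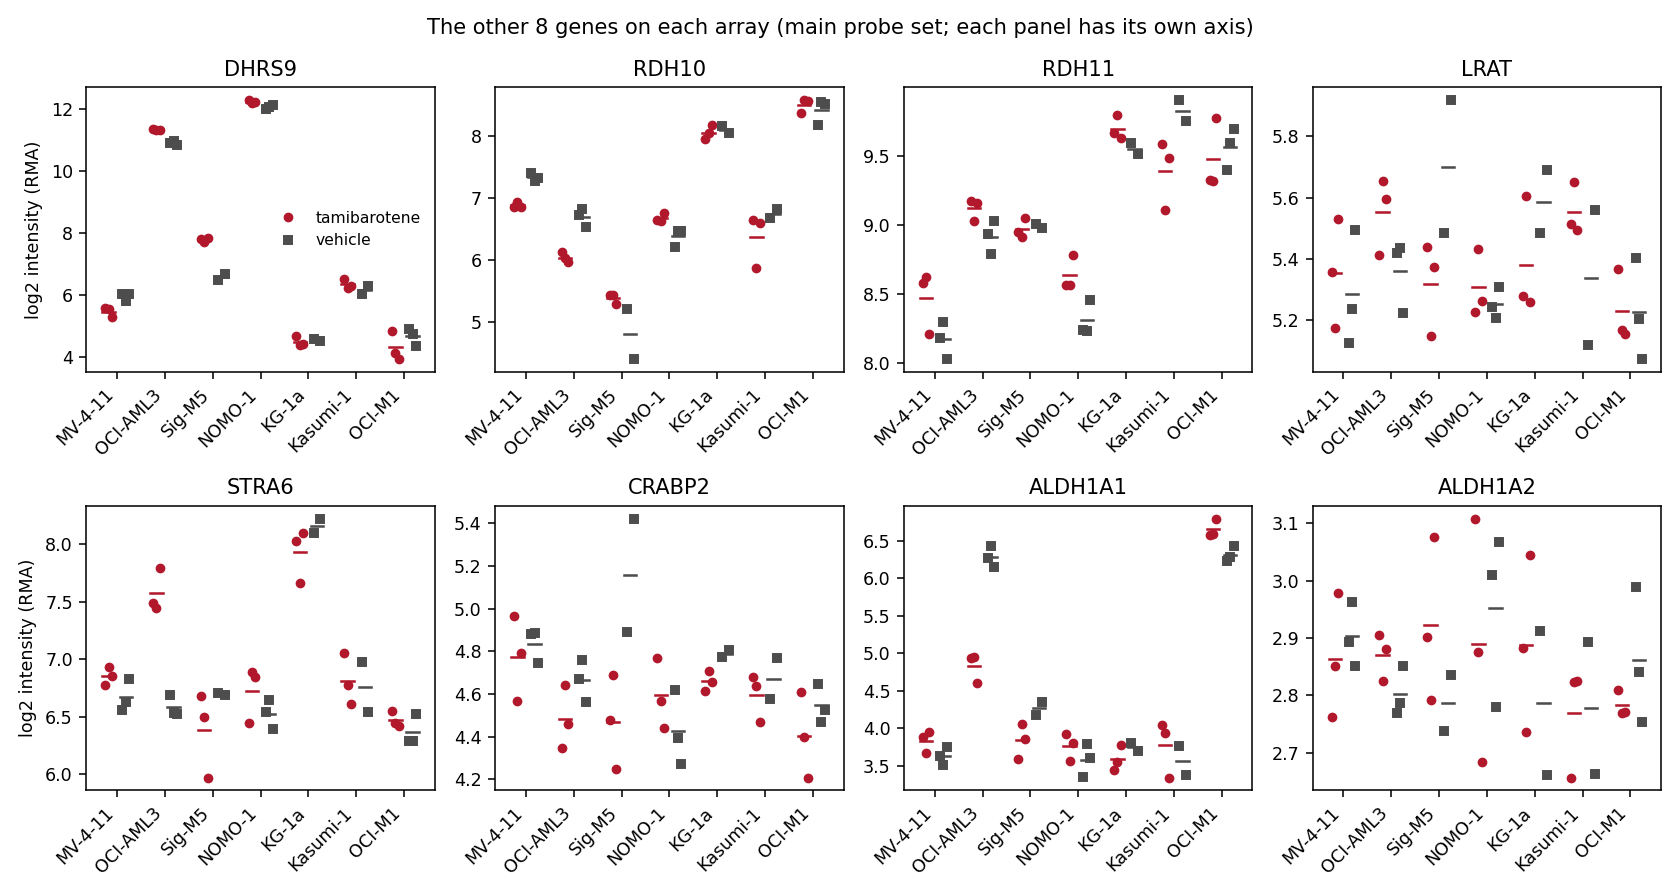
Log2 intensity (y axis, a separate scale in each panel) of the other 8 genes on each array by line (x axis), with tamibarotene arrays as circles left of vehicle arrays as squares and group means as bars. DHRS9 levels run from 3.93 to 12.27 between lines, the ALDH1A1 arms are apart in OCI-AML3, and 1 Sig-M5 vehicle array lies away from its partner for RDH10, LRAT and CRABP2.

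STRA6, the retinol uptake receptor, rose in OCI-AML3 alone among the 7 lines tested. It was at 7.49, 7.44 and 7.79 in OCI-AML3 tamibarotene arrays, against 6.69, 6.53 and 6.53 in vehicle arrays. Every treated array lay above every vehicle array, and the difference was 0.99 ± 0.15 (1.99-fold, adjusted p = 1.25e-05, limma). All 4 probe sets were called in this line, the others at 0.82, 1.04 and 1.03. The difference in the other 6 lines had its lowest value in Sig-M5 (-0.31) and its highest in NOMO-1 (0.20). KG-1a had the highest vehicle level, 8.16 ± 0.09 (SD, n = 2), which was 1.40 above Kasumi-1 (adjusted p = 2.22e-07, limma), and the remaining 6 lines lay between 6.37 and 6.76 with no step between neighbours that passed. LRAT, which esterifies retinol, was called in no line by any of its probe sets. By the main one, vehicle means lay between 5.23 (OCI-M1) and 5.70 (Sig-M5). By the others they lay at 2.37 to 2.47 and at 2.29 to 2.65. Both of these ranges are below the median of the array's background control probe sets (2.78 to 3.06). The largest difference of the main probe set was in Sig-M5. It had 5.44, 5.15 and 5.37 in tamibarotene arrays there, against 5.48 and 5.92 in vehicle arrays. That gave -0.38 ± 0.15 (adjusted p = 0.0523, limma), and the vehicle array at 5.92 is again the one with the actin difference of 1.89. Without it the difference was -0.16 (adjusted p = 0.633, limma).

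ALDH1A1, which oxidises retinaldehyde to retinoic acid, fell in OCI-AML3. It was at 4.93, 4.95 and 4.60 in OCI-AML3 tamibarotene arrays, against 6.26, 6.43 and 6.14 in vehicle arrays. The arms lay more than a unit apart, and the difference was -1.45 ± 0.15 (2.74-fold lower, adjusted p = 1.88e-08, limma). Its other 2 probe sets gave -2.09 (adjusted p = 4.68e-13) and -1.33 (adjusted p = 2.52e-06, limma). The vehicle levels of OCI-M1 and OCI-AML3 did not differ beyond their spread (6.31 ± 0.11 and 6.28 ± 0.14, SD, n = 3 each, adjusted p = 0.89, limma). In OCI-M1, ALDH1A1 was at 6.58, 6.59 and 6.79 in tamibarotene arrays, against 6.23, 6.28 and 6.43 in vehicle arrays, a difference of 0.34 ± 0.15 that was not called (adjusted p = 0.628, limma). Sig-M5 had a vehicle mean of 4.27 and a difference of -0.43 ± 0.17 (adjusted p = 0.0657, limma), and the other 4 lines had vehicle means from 3.57 to 3.75. ALDH1A2, the main retinaldehyde dehydrogenase of the mouse embryo, had vehicle means from 2.78 to 2.95 in all 7 lines and differences from -0.08 to 0.14. It was the only member whose mean over the 39 arrays lay among the dimmest 25% of genes, and neither its vehicle levels (F test, adjusted p = 0.628) nor its responses (F test, adjusted p = 0.819) passed.

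CRABP2, which delivers retinoic acid to its receptors, fell in Sig-M5 by its main probe set. It was at 4.48, 4.69 and 4.25 in Sig-M5 tamibarotene arrays, against 4.89 and 5.42 in vehicle arrays. The high vehicle array is the one with the actin difference of 1.89. The difference was -0.69 ± 0.15 with it (1.61-fold lower, adjusted p = 0.000629) and -0.42 without it, which was not called (adjusted p = 0.101, limma). The other 2 probe sets gave -0.08 and -0.23 and were not called. The other 6 lines had vehicle means from 4.43 in NOMO-1 to 4.84 in MV-4-11 and differences from -0.18 to 0.17, none of them called. The part of RNA quality in the Sig-M5 differences of RDH10, LRAT and CRABP2 was not tested beyond the values without that array.

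**Figure D5:**
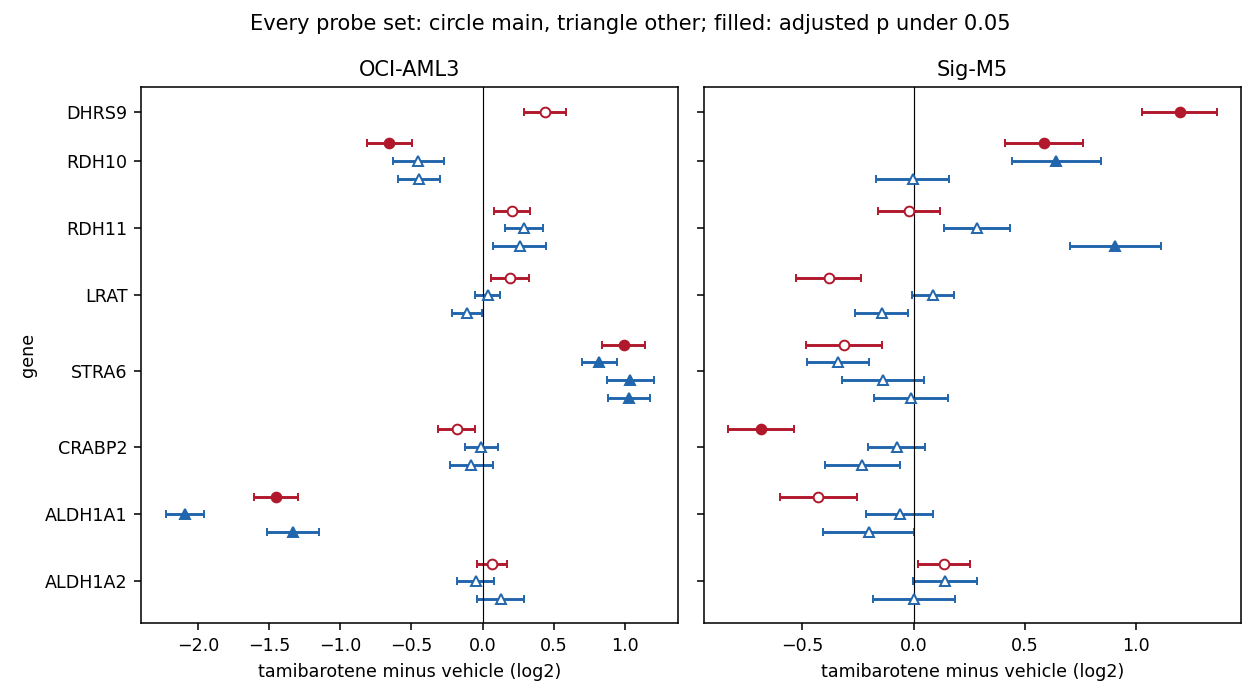
Tamibarotene minus vehicle (log2, x axis, with standard errors) of every probe set of the 8 genes other than DHRS3 (y axis) in OCI-AML3 (left) and Sig-M5 (right), where circles are main probe sets, triangles the others, and filled symbols have an adjusted p under 0.05. All 4 STRA6 and all 3 ALDH1A1 probe sets are filled in OCI-AML3, whereas in Sig-M5 the probe sets of RDH10, RDH11 and CRABP2 are filled in part.

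Within the same fit, the response of a line was compared with the average response in the remaining 6 lines. The DHRS3 response was greater in MV-4-11 (by 3.43 ± 0.18), OCI-AML3 (by 3.00 ± 0.18) and Sig-M5 (by 1.10 ± 0.20), with adjusted p from 6.15e-15 to 0.000153 in limma. It was smaller in KG-1a (-1.54 ± 0.20), OCI-M1 (-2.33 ± 0.18) and Kasumi-1 (-4.05 ± 0.20), with adjusted p from 4.85e-15 to 3.39e-06. In MV-4-11 the second of the 2 members called in this comparison was DHRS9 (-0.75, adjusted p = 0.00276), against 4.79% of all genes. OCI-AML3 had 4 members called, against 7.83% of all genes: besides DHRS3 these were STRA6 (0.995, adjusted p = 8.6e-05), RDH10 (-0.67, adjusted p = 0.0104) and ALDH1A1 (-1.51, adjusted p = 1.06e-07).

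Sig-M5 had 6 members called against the other lines, where 22.9% of all genes were. Besides DHRS3 these were DHRS9 (1.21, adjusted p = 9.07e-06), RDH10 (0.78, adjusted p = 0.003), CRABP2 (-0.61, adjusted p = 0.00456), STRA6 (-0.53, adjusted p = 0.0335) and LRAT (-0.44, adjusted p = 0.0426). Leaving out the vehicle array of actin difference 1.89 leaves 1 vehicle array in Sig-M5, so only the sizes are compared. DHRS3 was then at 0.97, DHRS9 at 1.305, RDH10 at 0.37, CRABP2 at -0.35, STRA6 at -0.54 and LRAT at -0.22. STRA6 thus hardly moved, while RDH10, CRABP2 and LRAT came nearer to no difference. OCI-M1 had 3, against 3.5% of all genes, with DHRS9 at -0.60 (adjusted p = 0.0326) and ALDH1A1 at 0.58 (adjusted p = 0.0483). Kasumi-1 had 2, against 5.36% of all genes, with RDH11 at -0.58 (adjusted p = 0.0206). Without the Kasumi-1 vehicle array of actin difference 1.18, which again leaves 1 vehicle array, RDH11 was at -0.50. KG-1a had DHRS3 only, against 4.9% of all genes. NOMO-1 had none in limma, against 2.61% of all genes. At an unadjusted p under 0.05 there were 5 members, a looser cutoff for which no share of all genes is given. These comparisons share arrays between lines and are not independent of each other.

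Averaged over the 7 lines, 1 member was called up, against 6.71% of all genes, and 1 down, against 12.4%. The standard errors and p-values of these averages leave out the spread between lines. DHRS3 was higher by 3.92 ± 0.07 (15.1-fold, adjusted p = 3.86e-28, limma), with a positive difference in 7 of 7 lines. CRABP2 fell by 0.16 ± 0.05 (adjusted p = 0.029, limma), with a negative difference in 6 of 7 lines. Its call was lost without Kasumi-1 vehicle replicate 3 (adjusted p = 0.0575) or KG-1a vehicle replicate 2 (adjusted p = 0.0508, limma). Without the Sig-M5 vehicle array of high actin difference the CRABP2 average was -0.12 (adjusted p = 0.0999, limma), and without Sig-M5 as a line it was -0.07 (adjusted p = 0.435, limma).

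Of 1245 genes with an absolute difference of at least 1 in some line, those whose 7 line differences were most like those of DHRS3 were CREB3L2 (Pearson r = 0.988), SMIM20 (0.976), SOAT1 (0.975), VASH1-AS1 (0.974) and ADSS1 (0.967). SOAT1, a cholesterol acyltransferase, ran from 1.73 in OCI-AML3 to -0.32 in Kasumi-1. CREB3L2, a membrane-bound transcription factor, ran from 1.35 in OCI-AML3 to -0.21 in Kasumi-1. Most like DHRS9 were BTG1 (0.957), CD36 (0.948), SLC5A3 (0.938), THBS4 (0.934) and SHTN1 (0.922). All of them except CD36 reached a difference of 1 only in Sig-M5, where DHRS9 was highest. Their high values there follow from how they were chosen. Most like CRABP2 were S100A4 (0.968), CCDC122 (0.958), CEP164 (0.958), RAB34 (0.957) and NABP2 (0.948). These 5 reached a difference of 1 only in Sig-M5, the line with the lowest CRABP2 difference and with the vehicle array of high actin difference, so their low values there follow from how they were chosen. The correlations are descriptions over 7 lines, with all differences taken from the same arrays.

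CYP26A1, the retinoic acid hydroxylase, showed another order of lines than DHRS3. Its vehicle levels lay between 2.88 and 3.47 in the 6 lines other than KG-1a, close to the median of the array's background control probe sets (2.78 to 3.06), so each rise from there is a lower bound. Tamibarotene arrays averaged 10.15 in OCI-M1, 9.27 in OCI-AML3, 6.99 in MV-4-11 and 3.24 in Sig-M5. Its difference was 7.10 ± 0.15 in OCI-M1, where DHRS3 gave 1.92, and -0.23 in Sig-M5 (adjusted p = 0.352, limma), where DHRS3 gave 4.86. In OCI-AML3 it was 5.97 and in MV-4-11 3.78. In KG-1a it was 0.66 and in NOMO-1 0.58, also called, and Kasumi-1 gave 0.38 (adjusted p = 0.215, limma). RARA was called in Sig-M5 only, at -0.67 ± 0.18 (adjusted p = 0.00592, limma), and was at -0.41 there without the array of actin difference 1.89 (adjusted p = 0.241, limma). Its vehicle level ran from 7.17 in NOMO-1 to 9.11 in Sig-M5.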

How the data were processed

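The authors deposited log2 intensities that the submitters' processing notes trace to RMA and the affy package, with no version and no word on joint normalization of the arrays. The 39 arrays were assigned to 14 groups of line and arm from their titles. Of 49395 probe sets, 44994 named 1 symbol in the platform annotation, 1832 several and 2467 none, and 102 were controls. The main probe set of each gene entered the tests without further normalization or filter. All arrays entered 1 fit with a mean a group in limma 3.58.1 (R 4.3.3, with the data.table package, version 1.17.8), with lmFit and eBayes, no trend and 25 residual degrees of freedom, so all groups share 1 estimate of the spread. Benjamini-Hochberg adjustment ran over the 18132 genes of a contrast. The fit was tested on simulated data. Probe sets other than the main one were fitted with all single-symbol probe sets and adjusted over them. Plots used Python 3.11.15 and matplotlib 3.10.9. Precision is limited by the 2 or 3 arrays a group.

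The members and lists were chosen with earlier results of these data known. Named beside the 9 members are RARA, CYP26A1, up to 3 called genes with the smallest adjusted p per line and list of other retinoid genes together with those called in the most lines, and the 5 genes most like DHRS3, DHRS9 and CRABP2 in their 7 differences. Gene symbols were updated, and promoter windows taken, from RefSeq for GRCh38.p14. Alternatives were the mean of all probe sets, each single probe set, quantile normalization, omission of the dimmest 25% of genes, trended and robust variances, array weights, the replicate number as a block, the beta-actin difference as a covariate, each line alone, lines or single arrays left out, and, chosen after seeing the data, both vehicle arrays of high actin difference left out.

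Replicate numbers are shared between the arms of a line, with 3 lines in part excepted. Treated replicate 1 of Kasumi-1 and treated replicate 3 of Sig-M5 and of KG-1a have no vehicle array of that number. The correlation of same-numbered arrays' deviations from their group means was 0.371, 0.256 and 0.118 in OCI-M1, and from -0.17 to 0.67 elsewhere. It was 0.0995, 0.67 and 0.501 in MV-4-11 and 0.0105, 0.511 and 0.572 in NOMO-1, so OCI-M1 does not stand apart. The labels state no pairing, and these values do not settle it for any line. The block changed no call of a member in OCI-M1, but it did in other lines, as with RDH10 in MV-4-11 (adjusted p = 0.035, limma).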

Additional observations from a re-analysis of the deposited data

Results flagged for a closer look

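The responses of 7 members differed between the 7 lines by an F test of the differences themselves (limma, Benjamini-Hochberg over all genes). The adjusted p was 8.41e-19 for DHRS3, with 0.44 in Kasumi-1 as the lowest and 6.86 in MV-4-11 as the highest difference. It was 1.32e-06 for ALDH1A1, from -1.45 in OCI-AML3 to 0.34 in OCI-M1. It was 1.61e-05 for DHRS9, from -0.49 in MV-4-11 to 1.19 in Sig-M5. STRA6 gave 0.000852, with 0.99 in OCI-AML3 as the highest difference and -0.31 in Sig-M5 as the lowest. RDH10 gave 0.000974, from -0.65 in OCI-AML3 to 0.585 in Sig-M5. RDH11 gave 0.0235, from -0.43 in Kasumi-1 to 0.33 in NOMO-1. CRABP2 gave 0.0475, from -0.69 in Sig-M5 to 0.17 in NOMO-1. Leaving out 1 array took the CRABP2 value past the threshold in 27 of 39 cases, up to 0.386, and the RDH11 value in 2 of 39 cases, up to 0.105 without the Kasumi-1 vehicle array of high actin difference. Of 10 other settings, which include the omission of lines and of arrays, 7 took the CRABP2 value past the threshold, up to 0.584. The RDH11 value passed it in 4, up to 0.415 without Kasumi-1 and Sig-M5 as lines. The values of the other 5 genes were below 0.05 with any 1 array left out and under these 10 settings.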

How the results depend on the processing

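Of 1442 recomputed member differences, 1357 kept their side of the threshold, 84 of these with the other sign while not called. A call was lost in 28 and gained in 54, and a change of sign counts as a reversal only if either value was called. The 3 reversals were RDH11 in Sig-M5, at 0.39 by the mean of its probe sets and 0.91 by 1 of them, and RDH10 in Sig-M5, at -0.0053 by 1 probe set. Counts of members called that moved by over 1.5 times were these. The mean of all probe sets gave 2 down in MV-4-11, 1 up in Kasumi-1, and 3 up and 2 down on average. Quantile normalization gave 3 down in Sig-M5 and 2 down on average. Leaving out the dimmest 25% of genes gave 2 down in Sig-M5. Array weights gave 2 up and 2 down in MV-4-11, 3 up in NOMO-1 and 2 up on average. The actin covariate, and omission of both vehicle arrays of high actin difference (chosen after seeing the data), each gave 0 down in Sig-M5 and 0 down on average. The covariate and that omission also lost RDH10 in Sig-M5 (0.22 and 0.18). DHRS9 in OCI-AML3 made 3 up there under each of 7 settings, all but the covariate. Each line fitted alone lost DHRS9 in MV-4-11 and RDH10 in Sig-M5, and gained RDH10 in MV-4-11 (-0.46, adjusted p = 0.0278, limma). Without Sig-M5 the average had 2 up, and without Kasumi-1 and Sig-M5 3 up and 2 down. With 1 array left out, calls up ran from 1 to 2 in MV-4-11, 2 to 3 in Sig-M5 and 1 to 2 on average, and calls down from 0 to 1 in MV-4-11, Kasumi-1 and OCI-M1, 0 to 2 in Sig-M5 and 0 to 2 on average. In OCI-AML3 2 were up and 2 down in each such case, and in NOMO-1, KG-1a and OCI-M1 1 was up. Calls gained this way were RDH11 in Kasumi-1 (-0.53, without treated replicate 1) and in MV-4-11 (0.43, without treated replicate 3), DHRS9 in OCI-M1, LRAT in Sig-M5 (-0.44 without treated replicate 1 and -0.60 without vehicle replicate 1) and ALDH1A1 in Sig-M5 (-0.54, without treated replicate 2). Members whose responses differed ran from 5 to 7. The cause of these changes was not tested, and signal over background limits ALDH1A2 and the LRAT probe sets other than the main one.

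With the replicate number as a block, 2 members were called down in MV-4-11, 2 down in Sig-M5, 2 down in Kasumi-1, and 2 up and 2 down on average. The gains were RDH10 in MV-4-11 (-0.46, adjusted p = 0.035), DHRS9 in OCI-AML3 (0.44, adjusted p = 0.0115), ALDH1A1 in Sig-M5 (-0.44, adjusted p = 0.0284) and RDH10 and RDH11 in Kasumi-1 (-0.51 and -0.53, adjusted p = 0.0495 and 0.00948). In OCI-M1 the block changed no call. A treated array with no vehicle array of its number drops out of the difference under the block, as treated replicate 1 does in Kasumi-1. Without that array and with no block, RDH11 in Kasumi-1 was also at -0.53. Over all genes the block gave 721 up and 1214 down in Kasumi-1, against 87 and 428 without it, and 699 down in MV-4-11 and 3311 in Sig-M5, against 616 and 3333.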

Other observations

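Among 11 measured genes of a list of 13 other retinoid carriers and uptake genes, CD36, a scavenger receptor that also takes up carotenoids, was called in the most lines. It rose by 3.14 ± 0.31 in Sig-M5 (adjusted p = 4.1e-09, limma), by 1.676 in OCI-AML3 and by 1.63 in NOMO-1, and fell by 1.10 in OCI-M1. FABP5, a fatty acid and retinoic acid carrier, fell by 0.55 in OCI-AML3 (adjusted p = 0.000745, limma). The list had 1 call up and 1 down in OCI-AML3, 1 up in NOMO-1, 1 down in OCI-M1, and 1 up and 3 down in Sig-M5. Over all genes, 5.5% were called up and 6.36% down in OCI-AML3, 2.77% up in NOMO-1, 0.386% down in OCI-M1, and 8.5% up and 18.4% down in Sig-M5. In Sig-M5, whose vehicle arrays had actin differences of 0.807 and 1.89, SCARB1 fell by 0.54, LRP2 by 0.51 and RBP3 by 0.26. Without the array at 1.89, CD36 was the only one of the 11 called there.

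Among 18 measured genes of a list of 25 other retinol dehydrogenases and retinaldehyde reductases, AKR1C3, an aldo-keto reductase that acts on retinaldehyde and on steroids, was called in 5 lines. It was at 9.84 in OCI-AML3 tamibarotene arrays and 7.41 in vehicle arrays (2.44 ± 0.15, adjusted p = 7.47e-14, limma). It also rose by 1.04 in Sig-M5, 0.93 in NOMO-1 and 0.87 in MV-4-11, and fell by 0.74 in KG-1a. The list had 1 call up in each of MV-4-11, OCI-AML3 and NOMO-1, and 2 up and 1 down in KG-1a. The shares of all genes called up were 4.32% in MV-4-11 and 1.21% in KG-1a, where 1.88% were called down. In Sig-M5 3 of the 18 were called up and 5 down, against 8.5% and 18.4% of all genes. DHRS7 was at 0.87 there, DHRS11 at -0.92 and RDH13 at -0.55. Without the vehicle array of actin difference 1.89 there were 2 up (AKR1C3 and DHRS7) and 2 down (DHRS11 and RDH13), when 4.43% of all genes were called up and 10.5% down. In KG-1a RDH13 rose by 0.51 and ADH1C by 0.46.

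Among 12 measured genes of a list of 13 for retinaldehyde oxidation, retinyl esters and carotenoids, the lipoprotein lipase gene LPL fell by 1.02 in NOMO-1 (adjusted p = 4.86e-05, limma) and by 0.57 in OCI-AML3. DGAT1, which can esterify retinol, fell by 0.57 and LIPE, a hormone-sensitive lipase, by 0.45 in Sig-M5, and PNPLA4 rose by 0.36 in OCI-AML3. The calls by line were 1 up and 1 down in OCI-AML3, 1 down in NOMO-1, where 0.711% of all genes were, and 2 down in Sig-M5. The Sig-M5 share of 2 in 12 is near the 18.4% of all genes called down there, and DGAT1 and LIPE were also called without the vehicle array of actin difference 1.89.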
